A study of Homo sapiens with 9 samples.

Results

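The 10 genes described here move iron into erythroid cells, carry it or its heme partner glycine into mitochondria, store it, or sense it: TFRC, TFR2, STEAP3, SLC11A2, SLC25A37, SLC25A38, FTH1, FTL, ACO1 and IREB2. They were chosen by name as a set of iron genes, 10 of 20175 protein-coding genes with an annotated start. Trimethylation of lysine 4 on histone H3 (H3K4me3), a mark of active promoters, had been mapped by CUT&RUN, in which a nuclease held at the mark by an antibody cuts out the DNA around it for sequencing. All 9 libraries came from HEL cells, an established human erythroleukemia line, and fell into 4 groups by guide: 3 libraries of cells given non-targeting control (NTC) guides, and 2 libraries each with a CRISPR knockout (KO) of METTL3, METTL14 or WTAP, subunits of the N6-methyladenosine (m6A) methyltransferase that marks mRNA. NTC and KO cells both carried Cas9 and a guide delivered by lentivirus, and no further treatment is given in the labels. The study's methods describe guides against a gene as a cloned pool and name no single-cell clones, so each library is taken as a transduced population whose edited share is not known here. The labels do not say whether each library came from a culture of its own, so p-values measure the spread between these libraries, which may be technical.

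In red cell precursors, transferrin-bound iron is taken up through the transferrin receptor TFRC. In the endosome the ferrireductase STEAP3 reduces it and the transporter SLC11A2 (DMT1) lets it out into the cytosol. SLC25A37 (mitoferrin) brings iron into mitochondria for heme, SLC25A38 imports the glycine that heme synthesis starts from, and ferritin, built from the heavy chain FTH1 and the light chain FTL, holds what is left. ACO1 and IREB2 encode the iron regulatory proteins, which bind stem-loops in the mRNAs of TFRC, FTH1, FTL and others when iron is scarce, and TFR2 is a second transferrin receptor that takes part in iron sensing.

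For each gene and library the value was the largest signal among the peaks with an edge within 1 kb of any annotated start, in the calibrated coverage units of the peak list. All coordinates are on hg19, with gene bounds from GENCODE. A gene with no such peak is listed at 0, which says only that no peak was listed there. The lists held 21724 to 21941 peaks in the NTC libraries, 9205 and 9369 in METTL3-KO, 3169 and 5286 in METTL14-KO, and 3160 and 3673 in WTAP-KO. The lists hold no fragment totals, so depth is unknown. Between 99.8% and 100% of a library's signal values lay within 0.1 steps of a whole multiple of a fixed step. The step was 1.14 to 1.32 in the NTC libraries and 0.320 to 1.07 in the KO libraries. What 1 step stands for was not tested. With 2 or 3 libraries in a group precision is low. Every listed peak was between 150 and 2000 bp wide. Of the 9 erythroid and megakaryocytic markers examined (GATA1, KLF1 and others), 6 had a promoter peak in all 3 NTC libraries and the other 3 in 1 or 2 of them. GATA1, KLF1 and EPOR had no peak in any KO library. None of the 3 hepatic markers examined had an NTC peak. A lower signal in every cell and fewer cells with the mark cannot be told apart in these bulk libraries.

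The promoters of 5 of the genes are printed to show the DNA at or near the peaks. The listed peaks lay to either side of some of these starts and over others. RefSeq windows of 250 bases before a start were placed on GRCh37 (hg19) by exact match for 7 of the 10 genes. FTH1, TFR2 and SLC25A37 had no entry. Only the stretch outside annotated exons is shown, 5′ to 3′ on the gene's strand. Capitals mark CCNCNCCC, a core bound by KLF factors, and ACGTG, the core of the hypoxia response element, on either strand. The STEAP3 stretch, chr2:119981160-119981406 on the + strand, was reached by the upstream peaks of NTC replicates 2 and 3. The SLC25A38 stretch, chr3:39424611-39424860 on the + strand, was reached by the peaks of 5 libraries, 3 NTC and 2 METTL3-KO. The TFRC stretch, chr3:195809025-195809211 on the - strand, was reached by peaks of NTC replicate 2, METTL3-KO replicate 2 and METTL14-KO replicate 1. The ACO1 stretch, chr9:32384391-32384600 on the + strand, was reached by peaks of all 6 KO libraries and by no NTC library. The 2 SLC11A2 stretches precede a proximal start around which KO peaks were listed (chr12:51420184-51420417 on the - strand) and a distal start over which NTC peaks were listed (chr12:51422195-51422275 on the - strand). The proximal stretch was reached by a peak of METTL3-KO replicate 2 alone. The distal stretch was reached by no peak, as the NTC peaks there ended at chr12:51422159 and chr12:51422175.
STEAP3: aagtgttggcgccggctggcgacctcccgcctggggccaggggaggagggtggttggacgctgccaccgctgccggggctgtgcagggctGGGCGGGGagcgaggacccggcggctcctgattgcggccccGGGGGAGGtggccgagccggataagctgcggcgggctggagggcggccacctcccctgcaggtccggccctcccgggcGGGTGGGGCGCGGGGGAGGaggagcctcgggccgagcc
SLC25A38: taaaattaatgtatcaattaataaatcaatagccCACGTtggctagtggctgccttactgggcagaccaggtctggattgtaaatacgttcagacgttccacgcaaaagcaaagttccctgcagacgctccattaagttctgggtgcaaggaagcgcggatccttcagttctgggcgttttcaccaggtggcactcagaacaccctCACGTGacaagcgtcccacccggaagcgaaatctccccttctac
TFRC: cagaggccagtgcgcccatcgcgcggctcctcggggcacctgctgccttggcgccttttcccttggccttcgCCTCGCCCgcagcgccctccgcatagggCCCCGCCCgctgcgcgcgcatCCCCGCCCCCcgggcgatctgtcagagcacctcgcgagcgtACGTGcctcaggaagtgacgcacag
ACO1: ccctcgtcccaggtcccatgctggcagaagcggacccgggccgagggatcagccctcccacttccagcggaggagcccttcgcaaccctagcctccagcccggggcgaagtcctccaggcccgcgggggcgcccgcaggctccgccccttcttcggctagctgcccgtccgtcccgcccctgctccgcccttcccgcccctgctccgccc
SLC11A2 proximal: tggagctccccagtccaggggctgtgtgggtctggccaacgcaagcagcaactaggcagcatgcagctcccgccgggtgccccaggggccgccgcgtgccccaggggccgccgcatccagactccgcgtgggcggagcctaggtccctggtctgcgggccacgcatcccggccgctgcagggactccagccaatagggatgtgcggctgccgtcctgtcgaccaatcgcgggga
SLC11A2 distal: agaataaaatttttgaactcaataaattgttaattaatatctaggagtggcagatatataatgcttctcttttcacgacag
Over the full windows of 250 bases, 8 of the 11 windows of these genes held CCNCNCCC (those of STEAP3, TFRC, ACO1 and FTL, 2 of SLC11A2 and 2 of IREB2) and that of SLC25A38 did not, where 53.4% of 35116 such windows held it. STEAP3 held 5 matches and TFRC 6, some of them overlapping. SLC25A38 held 3 matches to ACGTG, 2 of which are the strands of a single palindrome, and TFRC and FTL held 1 each, where 18.5% of windows held it. AGATAA or TGATAA, bound by GATA factors, was found in 1 window, at the distal SLC11A2 start, where 14.6% of windows held it. TGACNNNGC, the core of the antioxidant response element, was in none of the 11 windows of these genes, where 10.9% of windows held it. The proximal SLC11A2 window had 21 CpG dinucleotides and the distal window 4, beside a median of 11 over all windows.

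Within 1 kb of a start, these genes were marked about as often as other genes in NTC cells. In the KO libraries their share was above that of all genes, but in METTL14-KO replicate 2 it was close, at 2 of 10 beside 13.2%. A promoter peak was listed at 4, 6 and 4 of the 10 genes in the NTC libraries, where 46.8% to 47.9% of protein-coding genes had one. In METTL3-KO it was listed at 7 and 6, where 34.6% and 33.5% of genes had one. In METTL14-KO it was listed at 5 and 2, where 21.1% and 13.2% had one, and in WTAP-KO at 3 and 4, where 11.4% and 12.9% had one. With only peaks over a start counted, 1 of the 10 genes was marked in METTL14-KO replicate 2 and in each WTAP-KO library. The share over all genes at that setting is not given here. The counts over so few genes are a description and carry no test. They also hold different genes in NTC and KO libraries, as the values below show.

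**Figure D1:**
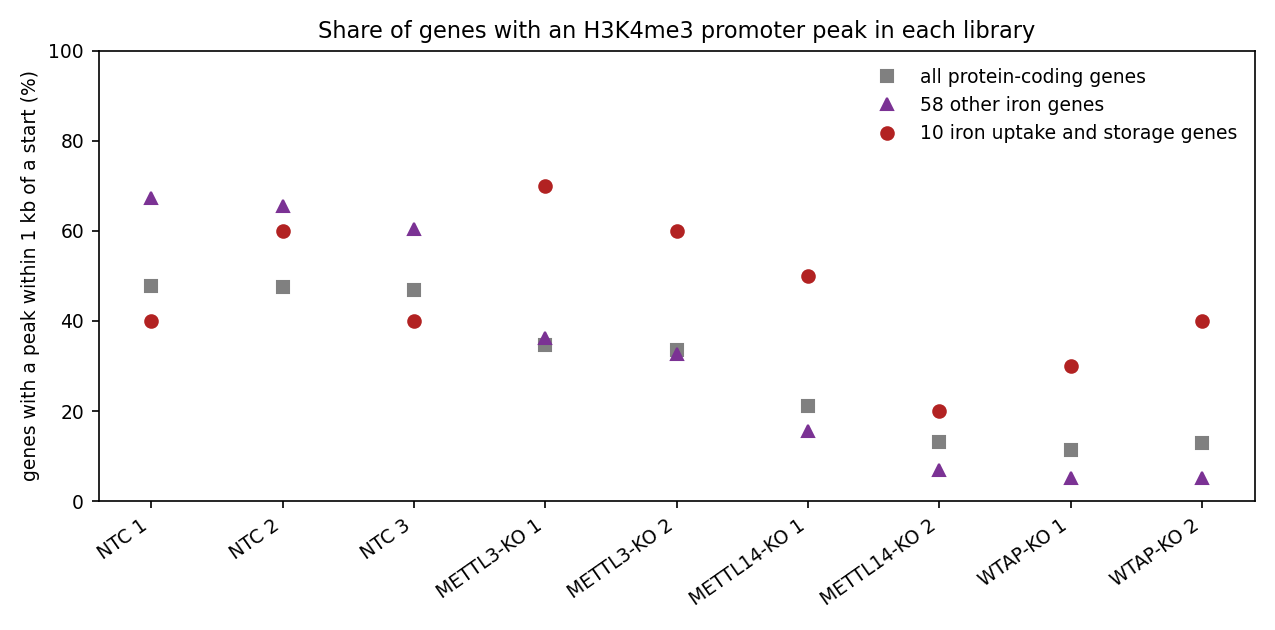
Percentage of genes with an H3K4me3 peak within 1 kb of a start (vertical axis) in each of the 9 libraries (horizontal axis), for the 10 iron uptake and storage genes (circles), 58 other iron genes (triangles) and all protein-coding genes (squares). The circles stay between 20% and 70%, while the squares go from 47.9% in NTC replicate 1 to 11.4% in WTAP-KO replicate 1.

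SLC25A38 (chr3:39424861-39438842), the glycine carrier, had the highest NTC signal of the 10 genes and a lower one in every KO library. Its signal was 14635, 16095 and 15784 in the NTC libraries, 3808 and 2748 in METTL3-KO, 709 and 0 in METTL14-KO, and 649 and 0 in WTAP-KO. The groups did not overlap: every KO library lay below every NTC library, and the METTL3-KO libraries lay above those of the other KO groups, with a mean of 21.1% of the NTC mean. All of its peaks lay over an annotated start. They were 1602 to 1706 bp wide in NTC, 1248 and 1245 bp in METTL3-KO, 163 bp in METTL14-KO replicate 1 and 259 bp in WTAP-KO replicate 1. In limma, on log2(signal + 30.1), SLC25A38 fell by 6.70 ± 1.70 (SE, adjusted p = 0.0101) in METTL14-KO and by 6.76 ± 1.70 (adjusted p = 0.00943) in WTAP-KO. For METTL3-KO the log2 difference was -2.25 ± 1.70 (adjusted p = 0.262). That difference passed the threshold when limma was fitted to the NTC and METTL3-KO libraries alone (adjusted p = 0.000546). Without METTL14-KO replicate 2 the METTL14-KO difference was -4.39 (adjusted p = 0.0563), and without WTAP-KO replicate 2 the WTAP-KO difference was -4.51 (adjusted p = 0.0575). When each library was centred on the 665 genes marked in all 9 libraries, the METTL14-KO and WTAP-KO differences were -3.89 and -3.33 (adjusted p = 0.0583 and 0.0931). Centring shifts values listed at 0 along with the rest. With each library's values divided by its step the differences were -5.97 and -5.98 (adjusted p = 0.0555 and 0.0531).

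SLC25A37 (chr8:23386469-23432976), the mitochondrial iron importer, lost every listed peak in the KO libraries. Its signal was 9685, 10662 and 10193 in the NTC libraries, and no peak was listed in any of the 6 KO libraries. The NTC peaks were 1653 to 1710 bp wide and lay upstream of the gene, reaching over the start at chr8:23386469 in NTC replicate 1 and ending 13 and 30 bp short of it in the other 2. A second NTC peak covered the start at chr8:23398983, with 2294, 6136 and 3906, and it too had no counterpart in a KO list. In limma SLC25A37 fell by 8.40 ± 0.13 on the log2 scale in each KO group (adjusted p = 6.09e-08 in METTL3-KO and METTL14-KO and 6.07e-08 in WTAP-KO). The size of that difference is set by the pseudocount, since the KO value is 0. The 6 KO libraries, all at exactly 0, add no spread to its SE, as holds for any group listed at 0 throughout.

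STEAP3 (chr2:119981407-120023228), the endosomal ferrireductase, was marked weakly in NTC cells and had no KO peak. Its signal was 413, 199.6 and 97.1 in the NTC libraries and was listed at 0 in all 6 KO libraries. None of its NTC peaks, 185 to 383 bp wide, covered a start: they lay 143 to 305 bp from one, upstream of the gene or in an intron. In limma STEAP3 fell by 2.96 ± 0.50 on the log2 scale in each KO group (adjusted p = 0.00176 in METTL3-KO, 0.00156 in METTL14-KO and 0.00147 in WTAP-KO). After centring on the genes marked in all 9 libraries the calls were lost, with differences of -1.44, -0.16 and 0.46 (adjusted p = 0.0955, 0.857 and 0.557), so that the direction in WTAP-KO turned. No WTAP-KO library had a peak there, and centring shifts values listed at 0 too.

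STEAP3 and SLC25A37 were 2 of the 3 genes of the set with a peak in all 3 NTC libraries, and both had none in the 6 KO libraries. Among the 8495 protein-coding genes with a peak in all 3 NTC libraries, 45.8% had none in any KO library. Per base of the peak, which allows genes to be set side by side, the NTC signal was 9.47 ± 0.50 at SLC25A38, 6.06 ± 0.39 at SLC25A37 and 0.713 ± 0.526 at STEAP3 (SD, n = 3). These 3 did not overlap, and they lay above 91.9%, 67.9% and 0.141% of the 8495 genes. FTH1 in its 2 marked NTC libraries, at 5.41 and 5.78 per base, overlapped the range of SLC25A37, which went from 5.66 to 6.45.

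**Figure D2:**
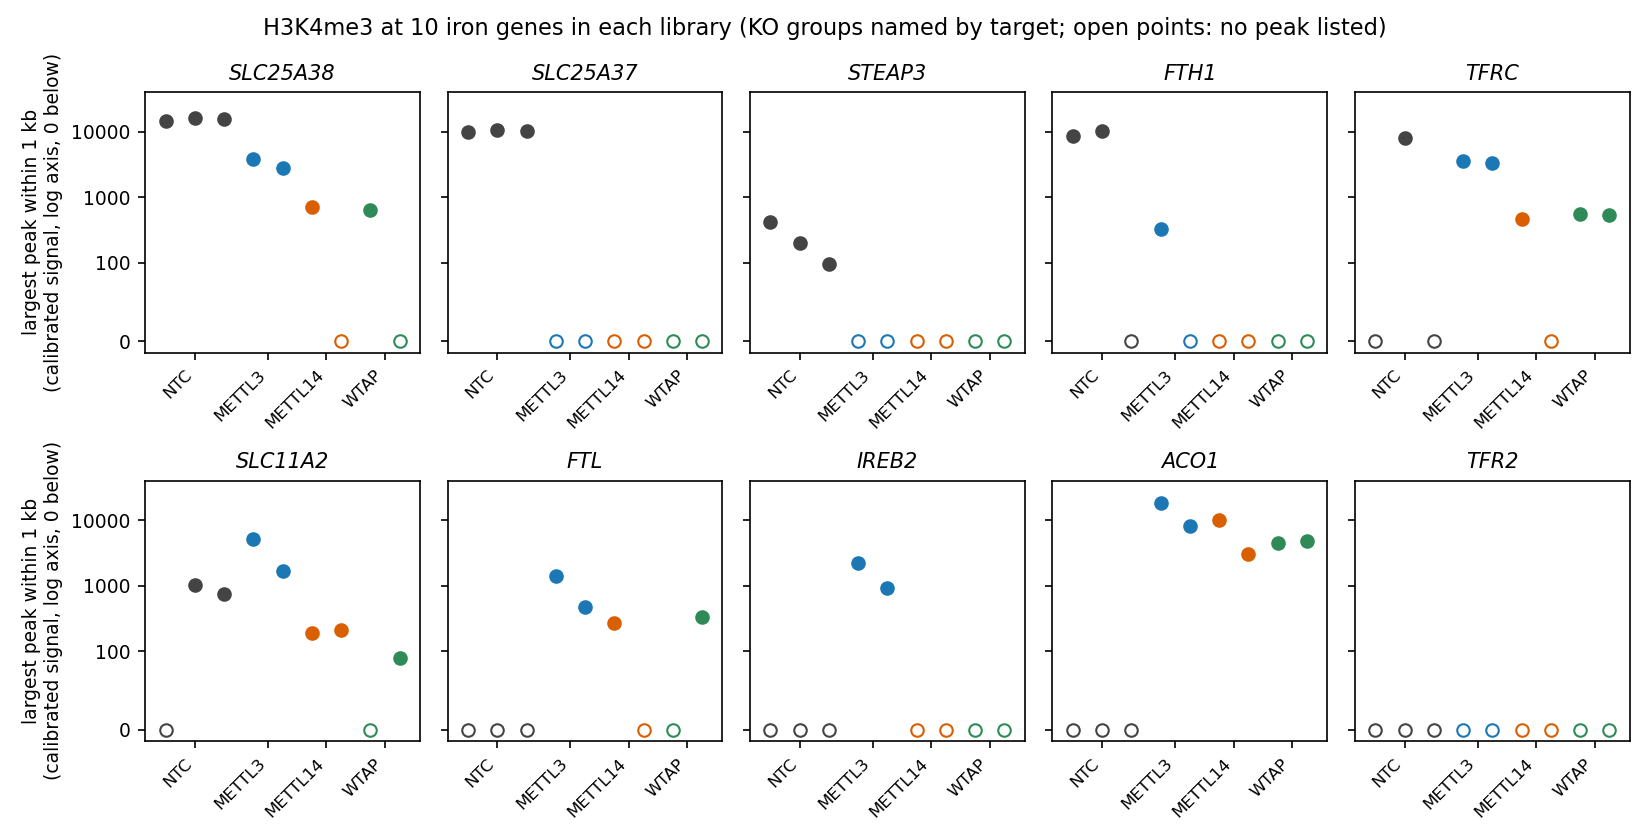
Largest peak signal within 1 kb of a start (vertical axis, calibrated signal, logarithmic above 30 with 0 drawn below) at each of the 10 genes in each library, with libraries in the order NTC, METTL3-KO, METTL14-KO and WTAP-KO. Each point is 1 library and open points are libraries with no listed peak. SLC25A38, SLC25A37 and STEAP3 are highest in the 3 NTC libraries, ACO1 has points in the 6 KO libraries and none in NTC, and TFR2 has no point above 0.

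The ferritin chains gave different pictures, and neither was listed evenly. FTH1 (chr11:61727190-61735106), the heavy chain with the ferroxidase activity, had 8663 and 10022 in NTC replicates 1 and 2 and no peak in NTC replicate 3. In the KO libraries it had 323 in METTL3-KO replicate 1 and 0 in the other 5. NTC replicate 3 therefore overlapped the KO libraries, and the nearest peak listed in it was 50549 bp from the start. The NTC peaks over the start were 1601 and 1734 bp wide. In limma the log2 differences were -3.74 ± 2.65 in METTL3-KO (adjusted p = 0.235), -5.52 ± 2.65 in METTL14-KO (adjusted p = 0.0982) and -5.52 ± 2.65 in WTAP-KO (adjusted p = 0.0988), none past the threshold. Without NTC replicate 3 they were -6.50, -8.28 and -8.28 (adjusted p = 0.00424, 0.00145 and 0.00139).

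FTL (chr19:49468566-49470136), the light chain, had no peak within 1 kb of its single start in any NTC library. It had 1396 and 482 in METTL3-KO, 271 and 0 in METTL14-KO, and 0 and 334 in WTAP-KO. Both METTL3-KO libraries lay above all NTC libraries, while the other KO groups overlapped them. Within 5 kb the NTC libraries had 1873, 2071 and 2791, from peaks 2335 to 2523 bp upstream of the start and outside the gene, and no KO library had a peak there. In limma FTL rose by 4.83 ± 1.33 on the log2 scale in METTL3-KO (adjusted p = 0.0152), and its differences in METTL14-KO and WTAP-KO were 1.66 and 1.80 (adjusted p = 0.289 and 0.258). Within 1 kb FTL entered the test only through KO libraries, so it could not have come out lower. The METTL3-KO call was lost without METTL3-KO replicate 1 (4.09, adjusted p = 0.0951). With the 5 kb window the differences turned, to -1.39, -4.56 and -4.42 (adjusted p = 0.375, 0.0189 and 0.0210). After centring, which shifts values listed at 0 too, FTL passed as higher in METTL14-KO and WTAP-KO as well (4.47 and 5.23, adjusted p = 0.00666 and 0.00346).

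ACO1 (chr9:32384601-32454767), which encodes a cytosolic aconitase that acts as an iron regulatory protein when it lacks its cluster, was the gene of the set listed in every KO library and in no NTC library. Its signal was 0 in the 3 NTC libraries, 18447 and 8091 in METTL3-KO, 10054 and 3005 in METTL14-KO, and 4517 and 4784 in WTAP-KO. Every KO library lay above the NTC libraries, while the ranges of the KO groups overlapped each other. In limma ACO1 rose by 8.67 ± 0.62 in METTL3-KO (adjusted p = 1.94e-05), by 7.52 ± 0.62 in METTL14-KO (adjusted p = 3.62e-05) and by 7.28 ± 0.62 in WTAP-KO (adjusted p = 4.22e-05). The pseudocount sets these sizes because the NTC value is 0. ACO1 entered the test only through KO libraries, so it could not have come out lower. The count of 1 gene in the set of 9 tested stands beside 4.88% of all 12037 genes tested with no NTC peak and a peak in all 6 KO libraries.

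The shape of the ACO1 peaks differed between KO libraries. In METTL3-KO and METTL14-KO replicate 1 a single peak of 1726 to 1936 bp covered the start. In METTL14-KO replicate 2 and both WTAP-KO libraries it was listed as a pair, one peak of 728 to 852 bp that ended 72 bp before the first start and one of 442 to 456 bp that began 185 to 187 bp after the canonical start, in an intron. When only peaks that cover a start were counted, the WTAP-KO value was 0 and the METTL14-KO difference was 4.19 (adjusted p = 0.13), while the METTL3-KO call was kept. With the KO groups averaged the difference was then 4.29 (adjusted p = 0.0547).

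IREB2 (chr15:78729773-78793795), the other iron regulatory protein, had peaks only in METTL3-KO. Its signal was 2254 and 924 in METTL3-KO and was listed at 0 in the 3 NTC, 2 METTL14-KO and 2 WTAP-KO libraries. The METTL3-KO libraries did not overlap the rest. The largest peaks, 392 and 374 bp wide, lay 387 and 408 bp downstream of a start, and METTL3-KO replicate 2 had a second peak of 149.5 to the other side of the canonical start. In limma IREB2 rose by 5.62 ± 0.36 in METTL3-KO (adjusted p = 1.13e-05). IREB2 was also higher in METTL3-KO than in the average of the other KO groups, by 5.62 ± 0.34 (adjusted p = 5.96e-05). The sizes of these differences are set by the pseudocount, and IREB2 entered the test only through the METTL3-KO libraries, as the other 7 were all at 0. In neither comparison could IREB2 have come out lower.

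IREB2 was the only 1 of 9 genes tested that was higher in that comparison between KO groups, where 29.5% of all genes tested were higher, and none was lower, where 0.582% of all genes were. At SLC25A38 it was 4.48 with a 95% interval of 0.56 to 8.41 (adjusted p = 0.0889), and at SLC11A2 4.69 with 0.95 to 8.43 (adjusted p = 0.0667). SLC11A2 passed as higher within 5 kb (adjusted p = 0.00272), with summed peaks (0.0497), with 10 times the pseudocount (0.0159) and without NTC replicate 1 (0.00902). SLC25A38 passed with 10 times the pseudocount (adjusted p = 0.0166), at a threshold of the median NTC peak signal (6.98e-06) and without METTL14-KO or WTAP-KO replicate 1 (0.0240 and 0.0388). FTL passed with 10 times the pseudocount and without METTL14-KO replicate 1 or WTAP-KO replicate 2 (adjusted p = 0.0464 to 0.0493), and ACO1 without METTL14-KO replicate 1 (1.70, adjusted p = 0.0246). Over all genes this comparison called 70 lower and 3552 higher, but 3776 lower and 2415 higher once the libraries were centred on the genes marked in all 9, and 92 lower and 2297 higher without METTL3-KO replicate 1. IREB2 passed as higher with centring (4.02, adjusted p = 0.00157). Without either METTL3-KO library it had a peak in a single library and could not be tested.

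TFRC (chr3:195739382-195809024), the main route of iron into red cell precursors, had peaks in fewer NTC than KO libraries. Its signal was 0, 8116 and 0 in the NTC libraries, 3575 and 3368 in METTL3-KO, 466 and 0 in METTL14-KO, and 563 and 536 in WTAP-KO. NTC replicate 2 was the highest of the 9 libraries and the other 2 NTC libraries were among the 3 at 0, so the groups overlapped. The peak of NTC replicate 2, 1101 bp wide at chr3:195808818-195809918, covered the canonical start. The largest METTL3-KO peaks, 912 and 889 bp wide, and both WTAP-KO peaks had their centres 948 to 1042.5 bp inside the gene. In NTC replicates 1 and 3 the nearest listed peaks were 38056 and 40746 bp from the start. The log2 differences in limma were 4.17 ± 2.65 in METTL3-KO, -0.67 ± 2.65 in METTL14-KO and 1.57 ± 2.65 in WTAP-KO (adjusted p = 0.192, 0.850 and 0.621). Without NTC replicate 2 the METTL3-KO and WTAP-KO differences were 6.86 and 4.27 and passed the threshold (adjusted p = 0.00558 and 0.0277).

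SLC11A2 (chr12:51373184-51422349), the endosomal iron exporter, was listed at different places in NTC and KO libraries. Its signal was 0, 1031 and 744 in the NTC libraries, 5149.7 and 1649.9 in METTL3-KO, 189.6 and 210.5 in METTL14-KO, and 0 and 78.1 in WTAP-KO. The METTL3-KO libraries lay above all others, and the METTL14-KO and WTAP-KO libraries lay within the NTC range. The NTC peaks, 207 and 249 bp wide, covered the distal start at chr12:51422025, whose upstream sequence is printed above. The KO peaks lay around the proximal starts, with centres 115.5 to 1072.5 bp inside the gene as counted from the canonical start, and no NTC peak was listed there. All 3 NTC libraries also had an intronic peak of 1902, 2214 and 2341 at least 2472 bp from the nearest start, which no KO library had. In NTC replicates 2 and 3 the stretch between these peaks without a listed peak was 5902 and 5756 bp long.

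In limma the SLC11A2 log2 differences were 3.34 ± 1.62 in METTL3-KO, -0.34 ± 1.62 in METTL14-KO and -2.35 ± 1.62 in WTAP-KO (adjusted p = 0.103, 0.881 and 0.226). Without NTC replicate 1 the WTAP-KO difference was -3.99 (adjusted p = 0.00734). With the 5 kb window, which takes in the intronic peak, the METTL14-KO and WTAP-KO differences were -3.24 and -5.25 (adjusted p = 0.0049 and 0.00044). After centring, METTL3-KO passed as higher (4.87, adjusted p = 0.0238) and the METTL14-KO and WTAP-KO differences turned to 2.47 and 1.08. TFR2 (chr7:100218039-100240402), the remaining receptor, had no peak within 5 kb of any of its 13 starts in any library and was not tested.

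**Figure D3:**
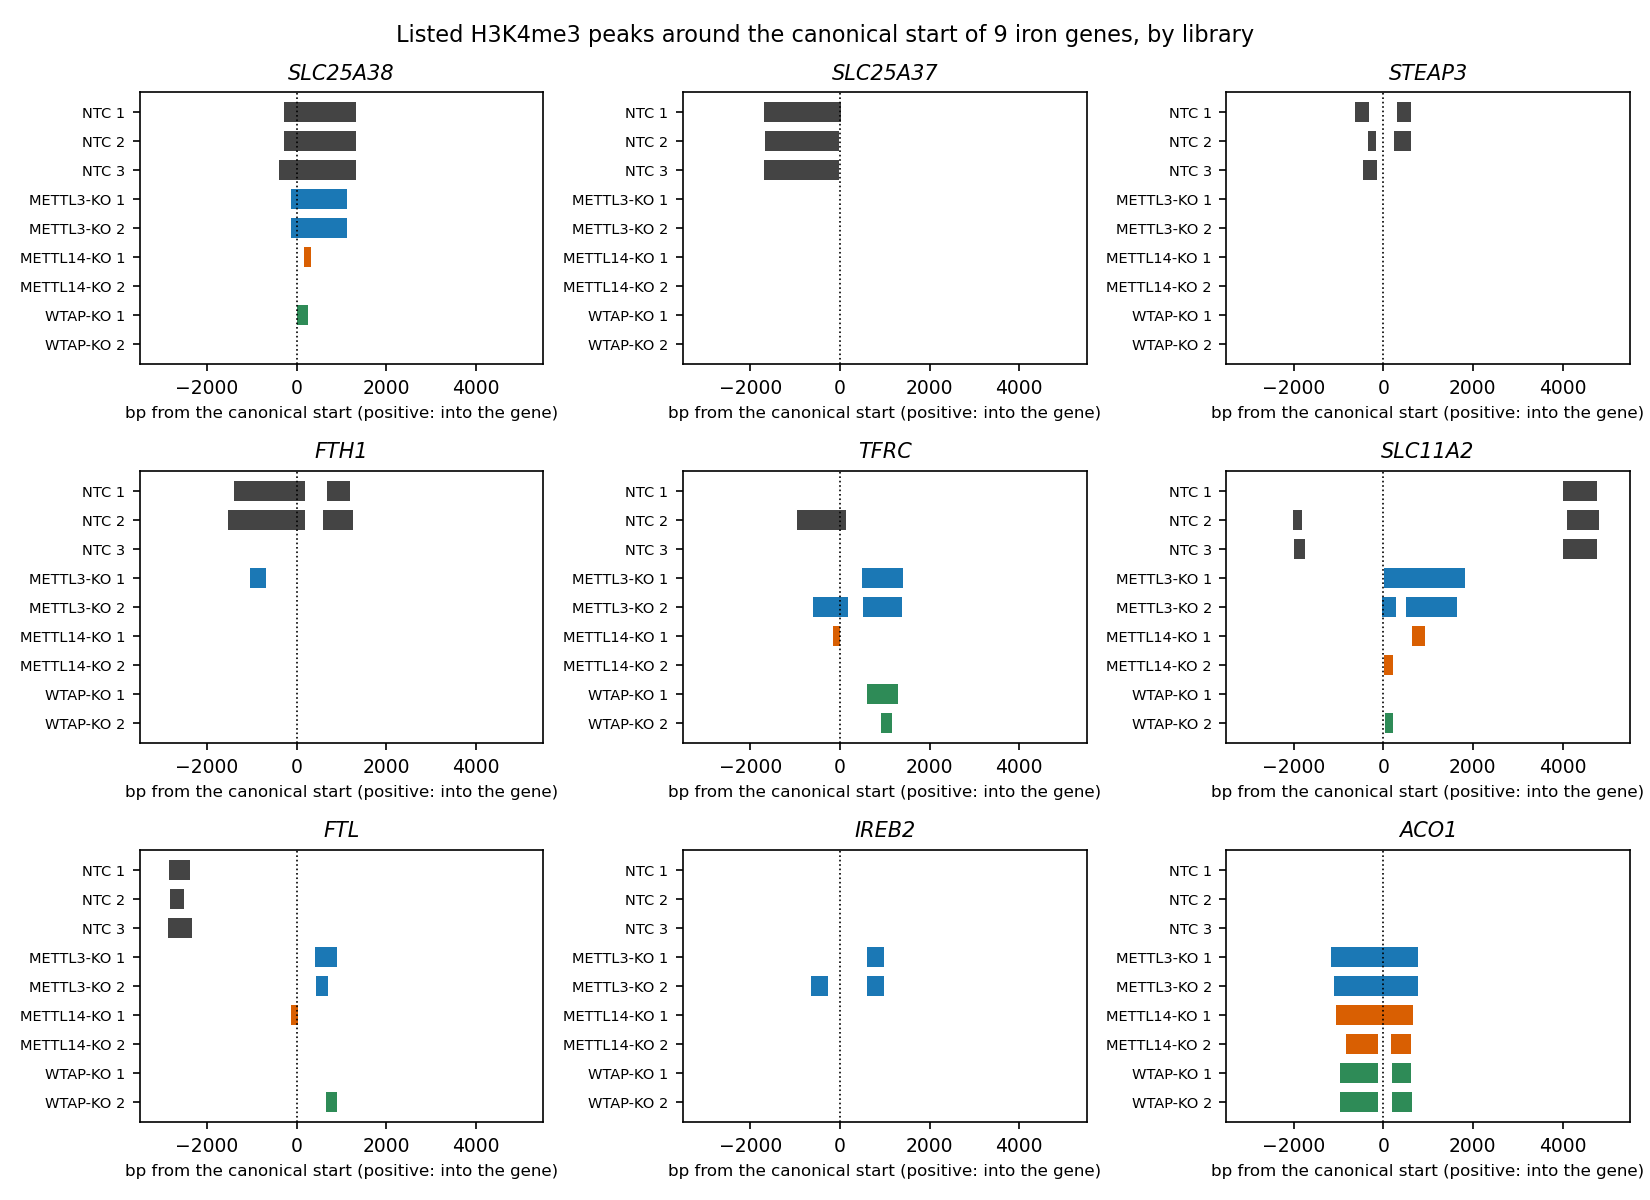
Listed peaks within 5 kb of a start at 9 of the genes (all but TFR2), drawn as bars at their distance in bp from the canonical start (dotted line, positive values into the gene), 1 row per library. At ACO1 the 6 KO rows hold peaks on or beside the start and the NTC rows hold none, at SLC11A2 and FTL the NTC bars lie away from the KO bars, and the second SLC25A37 peak, 12.5 kb into the gene, is outside the axis.

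FTL, ACO1 and IREB2 were 3 of 9 genes tested that had no NTC peak within 1 kb of a start, where 15.1% of all genes tested had none. All such genes entered the test only through KO libraries and could not be called lower within 1 kb. FTL had NTC peaks within 5 kb. Peak width moved with this over the whole genome. Of the genes with a METTL3-KO peak over a start, 13.8% had no NTC peak when the widest such peak was 150 to 499 bp, 22.7% at 500 to 999 bp, 43.6% at 1000 to 1499 bp and 74.9% at 1500 to 2000 bp. In METTL14-KO the share went from 25.4% to 70.1% and in WTAP-KO from 33.1% to 80.4% over the same widths. Peaks over 1800 bp made up 4.14% to 4.49% of the NTC lists and 0.285% to 1.24% of the KO lists, while no list held a peak over 2000 bp. The ACO1 peaks of METTL3-KO and METTL14-KO replicate 1 fell in the widest class, and the IREB2 and FTL peaks were under 500 bp. The part of the width limit in the NTC values of 0 at these genes, and in those of TFRC, SLC11A2 and FTH1, was not tested.

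**Figure D4:**
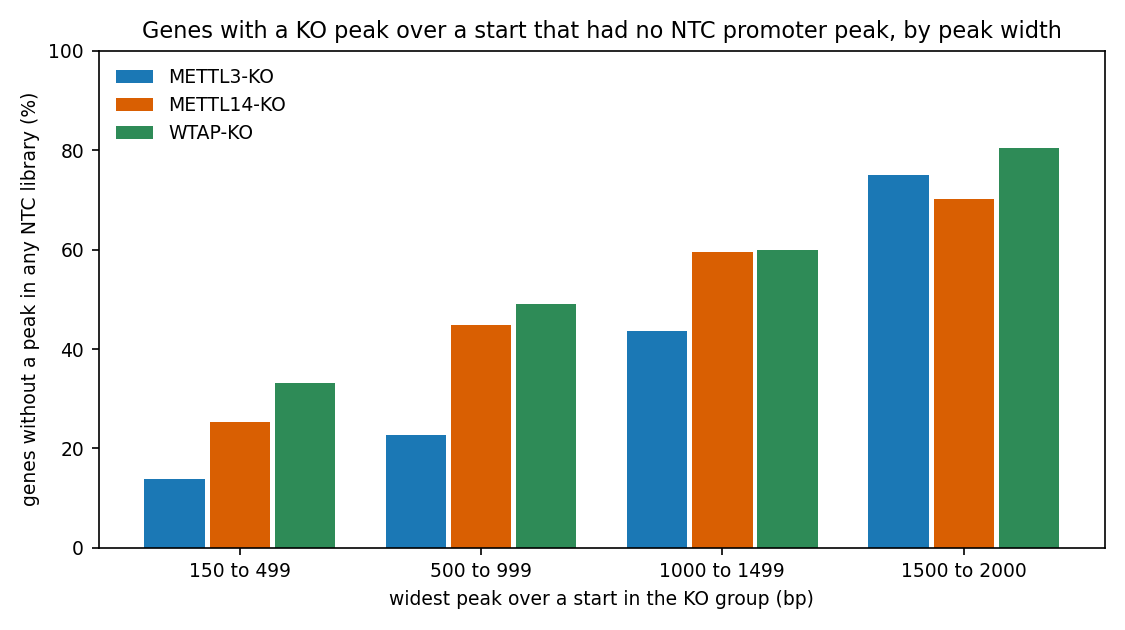
Percentage of protein-coding genes with a KO peak over a start that had no promoter peak in any NTC library (vertical axis), by the width of the widest such peak in bp (horizontal axis), 1 bar per KO group. The bars rise from 13.8% to 74.9% in METTL3-KO, from 25.4% to 70.1% in METTL14-KO and from 33.1% to 80.4% in WTAP-KO.

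Counted over the 9 genes tested, calls were split between the directions, while those over all genes were mostly lower. The genes called higher, FTL, ACO1 and IREB2, had no NTC peak within 1 kb, as held for 15.1% of all genes tested. They entered the test only through KO libraries and could not be called lower, so the split is a description. In METTL3-KO 2 genes were lower (STEAP3 and SLC25A37), where 60.9% of all genes tested were, and 3 were higher (FTL, ACO1 and IREB2), where 14.0% were. In METTL14-KO 3 were lower (STEAP3, SLC25A37 and SLC25A38), where 68.8% were, and ACO1 was higher, where 8.38% were. In WTAP-KO the names were the same as in METTL14-KO, where 69.7% of all genes were lower and 6.81% higher. With centring the balance turned. In METTL14-KO and in WTAP-KO 1 of the 9 genes was lower and 3 were higher, and in METTL3-KO 1 was lower and 4 were higher. Centring also shifts values listed at 0: SLC25A37, with no KO peak, went from -8.40 to -5.60 in METTL14-KO and to -4.98 in WTAP-KO. The 3 higher genes in METTL14-KO and WTAP-KO were FTL, ACO1 and IREB2. Of these, IREB2 had no peak in any NTC, METTL14-KO or WTAP-KO library. With the KO groups averaged, STEAP3, SLC25A37 and SLC25A38 were lower, where 73.0% were, and FTL, ACO1 and IREB2 were higher, where 14.3% were. The averaged call was lost for FTL without any 1 of the 3 NTC or 2 METTL3-KO libraries, METTL14-KO replicate 1 or WTAP-KO replicate 2 (adjusted p = 0.0575 to 0.103), for SLC25A38 with centring (adjusted p = 0.0824) or with values divided by the step (adjusted p = 0.0537), and for STEAP3 with centring (-0.38, adjusted p = 0.526). In an exact permutation test of that mean over the 9 libraries, two-sided, where the smallest p possible is 0.0238, STEAP3, SLC25A37, SLC25A38 and ACO1 had the same adjusted p of 0.0324, while FTL and IREB2 had 0.275 and 0.848. All these comparisons share the same 3 NTC libraries.

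The median log2 difference of the 9 genes was 3.34 in METTL3-KO, -0.67 in METTL14-KO and -2.35 in WTAP-KO, beside -3.48, -5.57 and -5.97 over all genes tested. Centring on the genes marked in all 9 libraries moved the medians of all genes to -1.95, -2.76 and -2.55, and those of the 9 genes to 4.87, 2.13 and 1.08, so that the sign in METTL14-KO and WTAP-KO turned. In METTL14-KO centring changed the calls over all genes from 8281 lower and 1009 higher to 6832 and 1980, and in WTAP-KO from 8386 and 820 to 6974 and 1989. Because values at 0 shift too, these higher calls include IREB2, which had no peak in NTC or in those KO groups. The median of the 9 genes lay above that of all genes by 6.82, 4.90 and 3.62, a gap that centring cannot change and that includes genes listed at 0 in NTC, whose values the pseudocount sets.

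**Figure D5:**
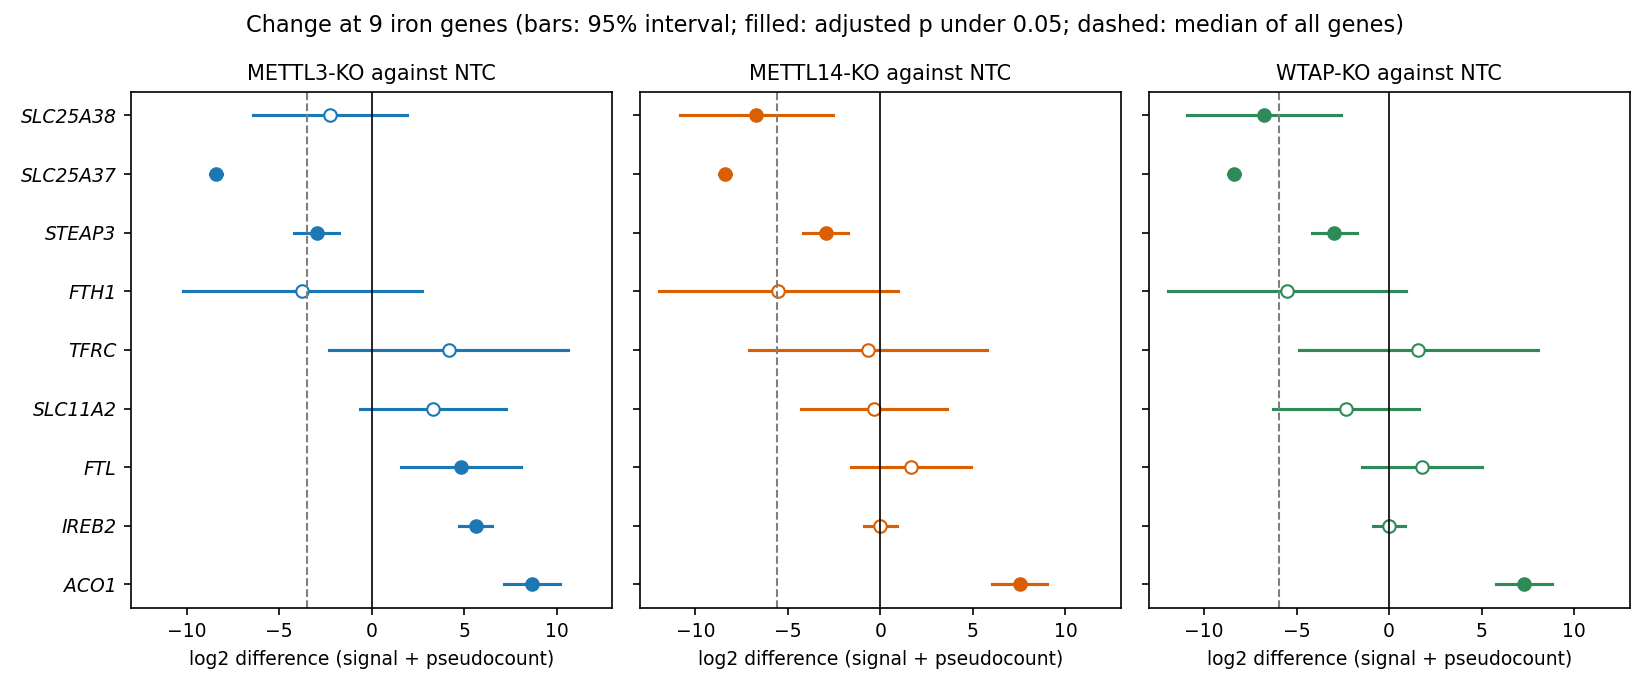
Log2 difference from NTC (horizontal axis, on log2 of signal + 30.1) at 9 of the genes in each KO group, with the 95% interval from limma. Filled points passed an adjusted p of 0.05 and the dashed line is the median of all genes tested, which is -3.48, -5.57 and -5.97 in the 3 panels.

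Beyond these genes, 58 other genes of iron biology were examined, and 44 of them were tested. In calls they lay near the whole table. With the KO groups averaged, 33 of the 44 were lower than in NTC, where 73.0% of all genes tested were. A rise was called at 6, where 14.3% of all genes tested were higher. Their median log2 difference was -5.89, beside -5.30 over all genes. A promoter peak was listed at 39, 38 and 35 of the 58 in the NTC libraries, where 46.8% to 47.9% of all genes had one. In METTL3-KO the counts were 21 and 19, where 34.6% and 33.5% had one. In METTL14-KO they were 9 and 4, where 21.1% and 13.2% had one, and in WTAP-KO 3 and 3, where 11.4% and 12.9% had one. These genes were thus marked more often than other genes in NTC and less often in METTL14-KO and WTAP-KO. Of the 33 with a peak in all 3 NTC libraries, 17 had none in any KO library, where 45.8% of all such genes had none. By role, 17 of 20 iron-sulfur cluster genes tested were lower, as were 9 of 12 in transport and reduction. In iron regulation it was 5 of 9 and in heme breakdown 2 of 3, beside 73.0% of all genes tested.

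The most strongly marked of these genes in NTC, the 2 of each role with the highest mean, are given as a description, since a choice by NTC level favours a fall. BLVRB, a biliverdin reductase, had a mean NTC signal of 15883 ± 2587 (SD, n = 3) and fell by 8.39 ± 0.80 on the log2 scale (adjusted p = 6.97e-05). HSCB, a cochaperone of iron-sulfur cluster transfer, went from 13344 ± 1498 to 1258 ± 1441 in METTL3-KO (n = 2) and 0 in WTAP-KO, and fell by 6.38 ± 1.21 (adjusted p = 0.00235). NFU1, a scaffold of the same pathway, had 12662 ± 1726 and fell by 6.67 ± 0.24 (adjusted p = 4.58e-07). EXOC6, a subunit of the exocyst that recycles transferrin endosomes, had 11846 ± 2133 and fell by 6.88 ± 0.48 (adjusted p = 1.40e-05). SLC25A28, the second mitoferrin, had 6230.0 ± 275 and no KO peak, and it fell by 7.70 ± 0.09 (adjusted p = 1.26e-08). Its KO libraries, all at 0, add no spread to that SE. The iron chaperone PCBP1 and NCOA4, the receptor that sends ferritin to lysosomes, fell, with log2 differences of -7.55 ± 0.73 and -7.49 ± 0.63 (adjusted p = 7.86e-05 and 3.67e-05). BLVRA, listed in 2 of 3 NTC libraries, had a difference of -1.79 ± 2.11 (adjusted p = 0.448).

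The 6 other iron genes that rose were named after their values were seen: ISCU, NFS1, BOLA3, SNX3, CYBRD1 and HJV. They were also the 6 of the 44 with no NTC peak within 1 kb, where 15.1% of all genes tested had none. They entered the test only through KO libraries, so they could not have come out lower. ISCU, the scaffold on which iron-sulfur clusters are built, was the only 1 of them with a peak in all 6 KO libraries: 5389.7 and 4098 in METTL3-KO, 3145 and 1449 in METTL14-KO, and 989 and 1454 in WTAP-KO, with widths of 187 to 1448 bp. It rose by 6.27 ± 0.33 on the log2 scale with the KO groups averaged (adjusted p = 2.76e-06). NFS1, the cysteine desulfurase that feeds the same scaffold, had 19842 in METTL3-KO replicate 1 and no peak in replicate 2, 5062 and 2741 in METTL14-KO, and 622 and 4172 in WTAP-KO. Its difference was 5.81 ± 1.98 (adjusted p = 0.0306).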

How the data were processed

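H3K4me3 CUT&RUN was performed by the authors in HEL cells, 9 libraries in 4 groups taken from the sample labels. Reads were aligned with Bowtie to hg19 and to sacCer3 for a yeast spike-in, duplicate reads were dropped with Picard, and the deposited peak lists, called per library by a threshold, give a signal (spike-in calibrated coverage) per peak. Versions are not given in the sources used here. It was assumed that peak starts count from 0.

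Peaks within 1 kb (beside it 5 kb) of any start of 20175 protein-coding genes of GENCODE on hg19 were taken, and the largest signal per gene and library was compared with limma 3.58.1 (R 4.3.3, trend option) on log2(signal + 30.1), the smallest value of the table, with all 9 libraries in 1 model. Genes with a peak in at least 2 libraries (12037) were tested, with Benjamini-Hochberg adjustment at 0.05. The 10 genes, and the lists of other iron genes and markers, were chosen with earlier results of these data known. Every gene of the set is named, and of the other iron genes the 2 per role with the highest mean NTC signal. Fits were also run on simulated data with normal noise around the NTC means. Those data hold no group at exactly 0, so they do not cover that case. Figures were drawn with matplotlib 3.10.9.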

Additional observations from a re-analysis of the deposited data

Results flagged for a closer look

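IREB2 differed between the KO groups: the difference itself was tested, and METTL3-KO lay above the other KO groups, averaged, by 5.62 ± 0.34 on the log2(signal + 30.1) scale in limma (adjusted p = 5.96e-05), with peaks of 2254 and 924 in the METTL3-KO libraries and none in the 4 libraries of the other KO groups. The size is set by the pseudocount because the other groups are listed at 0. The gene entered the test only through the 2 METTL3-KO libraries, so it could not have come out lower. That it was higher in 2 of 2 METTL3-KO libraries was fixed by that entry. Of the 9 libraries behind its SE, 7 were at exactly 0, so the adjusted p does not bear on the direction. In the same comparison 29.5% of all genes tested were higher in METTL3-KO.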

How the results depend on the processing

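Of 125 values of the 5 counts of genes called and of the 4 group means of genes with a promoter peak, under alternatives to the settings above, 111 stayed close to their first value. At a stricter threshold, the median signal of NTC peaks, 6127 genes were called in METTL14-KO, 6099 in WTAP-KO and 888 between METTL3-KO and the other KO groups, against 9290, 9206 and 3622. That last count was 2147 with peaks covering a start, 6191 with centring and 2082 with values divided by each library's step. Leaving out each library gave 8079 to 9547 calls for METTL3-KO, 9101 to 9441 for METTL14-KO, 9013 to 9489 for WTAP-KO, 9551 to 10133 for their mean and 2389 (without METTL3-KO replicate 1) to 4378 between KO groups. Within 5 kb the mean number of the 10 genes marked was 6 in NTC, where 53.1% to 53.8% of all genes were marked. For peaks covering a start it was 4 in METTL3-KO and 1 in WTAP-KO. At the stricter threshold it was 3 in NTC, 4 in METTL3-KO and 1 in METTL14-KO and WTAP-KO. The share over all genes for peaks covering a start and at the stricter threshold is not given here. The first values were 4.67 in NTC, 6.5 in METTL3-KO, 3.5 in METTL14-KO and 3.5 in WTAP-KO. Without each library in turn the mean number was 4 to 5, 6 to 7, 2 to 5 and 3 to 4.

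Of 817 log2 differences of single genes under the alternatives, 726 kept direction and call, 36 became called, 29 lost the call and 26 turned. TFRC in METTL14-KO turned to 2.13 with centring, 0.073 with values divided by the step, 2.02 without NTC replicate 2 and 1.35 without METTL14-KO replicate 2 (range without 1 library -2.69 to 2.02). TFRC in WTAP-KO turned to -0.10 with 10 times the pseudocount and to -2.69 with peaks covering a start or at the stricter threshold, which also turned its mean over KO groups to -0.41. STEAP3 in WTAP-KO turned to 0.46 with centring. SLC11A2 in METTL14-KO turned to 0.61 with 0.1 times the pseudocount, 2.47 with centring, 1.05 with values divided by the step, 0.59 without NTC replicate 2 and 0.36 without NTC replicate 3 (range without 1 library -1.98 to 0.59), and in WTAP-KO to 1.08 with centring. Its mean over KO groups turned to -2.68 within 5 kb, -0.26 with peaks covering a start, -1.42 without NTC replicate 1, -0.055 without METTL3-KO replicate 1 and -0.092 without WTAP-KO replicate 2 (range without 1 library -1.42 to 1.15). Within 5 kb FTL turned to -1.39 in METTL3-KO, -4.56 in METTL14-KO, -4.42 in WTAP-KO and -3.46 for the mean. ACO1 between KO groups turned to -0.32 with centring. The cause was not tested.

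Same-numbered libraries showed little common deviation (mean correlation of deviations 0.006 over 12 pairs), so numbers were not taken as pairing. The mean over the 18 other pairs, -0.004, is no separate comparison. Deviations from a group mean sum to 0, so the 12 pairs set it. With the replicate block, which sets NTC replicate 3 aside, 8756, 9329, 9414, 10002 and 2746 genes were called in the 5 comparisons. FTH1 was then lower in every KO group (-6.50 in METTL3-KO and -8.28 in the others), FTL was no longer called in METTL3-KO (4.83, adjusted p = 0.0757 in limma) or for the mean, and SLC11A2 in METTL14-KO turned to 0.36.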
